A study of Mus musculus with 12 samples.

Results

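The regulators of G protein signalling (RGS proteins) were examined in mouse hearts through 10 genes, Rgs1, Rgs2, Rgs3, Rgs4, Rgs5, Rgs6, Rgs7, Rgs10, Rgs12 and Rgs14. Members were taken from an array with 37074 distinct names in its gene column, as every probe whose gene name equalled one of these symbols, which gave 25 probes. All 12 hearts came from male C57BL6/J mice aged 5 months, with 1 array per mouse and 3 mice per group. Control mice given vehicle formed group C, and control mice given the monoamine oxidase inhibitor pargyline at 50 mg/kg per day for 12 weeks formed group C + P. Group D was made diabetic with streptozotocin, which is toxic to pancreatic beta cells, at 50 mg/kg per day over 5 days, counted as diabetic from a blood glucose of 17 mM, and then given vehicle. Group D + P received the same toxin and then the same course of pargyline. No mutation or transgene is stated for any group beyond the strain. Treatment began in mice aged 6 to 7 weeks, and the tissue was heart muscle, in which cell types were not separated.

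RGS proteins speed up the hydrolysis of GTP by the alpha subunits of heterotrimeric G proteins and so shorten the signal of a receptor. The R4 subfamily (here Rgs1 to Rgs5) consists mostly of small proteins built around the RGS domain, and among them RGS2 acts preferentially on Gq, which carries the signals of angiotensin II, endothelin and alpha1-adrenergic agonists to the heart muscle cell. The R7 subfamily (Rgs6 and Rgs7) needs the atypical beta subunit Gβ5 as a partner, and RGS6 limits the vagal slowing of the heartbeat. The R12 subfamily holds RGS10, which is little more than an RGS domain, and the multidomain proteins RGS12 and RGS14, which also bind inactive Gαi.

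The array read most of these transcripts through probes of 60 bases, each present as 1 spot. The probe that carried the Rgs2 signal is shown because the main comparison rests on it, and a probe each of Rgs10 and Rgs12 because their other probes gave different sizes of change. All are printed 5′ to 3′ in the sense of the transcript, as the scanner files give them.
Rgs2: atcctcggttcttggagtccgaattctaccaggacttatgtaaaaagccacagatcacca
Rgs10: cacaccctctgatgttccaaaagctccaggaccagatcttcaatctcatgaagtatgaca
Rgs12: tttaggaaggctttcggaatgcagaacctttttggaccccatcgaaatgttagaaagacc
The Rgs2 probe lies at chr1:145848830-145848889 on the minus strand of mm9, the build of the files, and covers bases 587 to 646 of its transcript. The Rgs10 probe runs from chr7:135517532-135532512 on the minus strand, a span of 14981 bases, so it crosses a splice junction between bases 422 and 481 of the transcript. The Rgs12 probe lies at chr5:35309330-35309389 on the plus strand and covers bases 1987 to 2046. At least 1 reading frame was free of stop codons across each of them, and no other probe on the array had the same sequence. Whether the probes lie in coding or untranslated exons was otherwise not given in the files.

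Signals are given as log2 of the processed intensity after quantile normalisation between arrays, and a difference of 1 on this scale is a change of 2-fold. Levels of different probes cannot be set against each other. Testing required a positive and significant signal on 50% or more of the arrays in each of the 4 groups. This held for 30859 of the 56605 probes on the array and for 17 of the 25 RGS probes, from 9 of the 10 genes. The scanner software called 9 RGS probes, from 5 genes (Rgs2, Rgs3, Rgs5, Rgs10 and Rgs12), well above background on all 12 arrays, and 10 probes on no array. Between 23556 (D replicate 1) and 29231 (C replicate 2) of 59305 spots per array were well above background, and 0 were saturated. C and D lay on slide 1 and C + P and D + P on slide 2, so that pargyline and slide cannot be told apart, and diabetic hearts lay in another row of each slide than the non-diabetic ones, so that row and diabetes cannot be told apart either. The arrays in slide column 1, which were C + P replicate 1, D replicate 1 and D + P replicate 1, had the most variable repeated spots, with a median coefficient of variation of 22.3% to 35.3% against 6.03% to 19.1% on the other arrays. All 8 cardiomyocyte markers (Myh6, Tnnt2, Tnni3, Actc1, Ryr2, Mybpc3, Myl2, Myl3) were well above background on all 12 arrays, and the log2 of their summed signal ranged from 19.70 to 19.94. This sum is set by the brightest of them. Ryr2, the calcium release channel of the sarcoplasmic reticulum, ranged from 13.44 to 13.81 in C, 13.36 to 13.75 in C + P, 11.83 to 12.99 in D and 12.18 to 12.90 in D + P, with an averaged difference for diabetes of -0.99 (SE 0.21, adjusted p = 0.141 in limma) and no overlap in either comparison.

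The comparisons ask whether diabetes changed the RGS transcripts, without pargyline (D against C) and with it (D + P against C + P), and whether pargyline altered their level or their response to diabetes. Rgs2 was the RGS gene that differed most with diabetes, at 2.11-fold higher without pargyline and 1.80-fold higher with it, and for no other member were the diabetic arrays apart from the non-diabetic ones in both comparisons. In none of the 6 contrasts fitted with limma did an RGS probe reach a p under 0.05 after Benjamini-Hochberg adjustment for all probes tested. Calls were rare on the whole array. For diabetes they made up 0.00648% of tested probes without pargyline, 0.0454% with it and 0.107% in the average of both. For pargyline they made up 0.0324% in control mice (C + P against C) and 0% in diabetic mice (D + P against D). The interaction, which subtracts the diabetes response of mice without pargyline from that of mice with it, had 0.00648%. At an unadjusted p under 0.05, the RGS probes numbered 3 of 17 for diabetes without pargyline, 2 with it and 3 on average, 0 for pargyline in control mice, 3 for pargyline in diabetic mice and 0 for the interaction. The corresponding shares of all tested probes were 10.8%, 7.46%, 11.4%, 4.43%, 13.3% and 7.03%. In D against C 13 of the 17 probes had a lower mean and 4 a higher one, with a median log2 change of -0.29 against -0.01 over all tested probes. In D + P against C + P 11 were lower and 6 higher, with a median of -0.11 against 0.01.

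**Figure D1:**
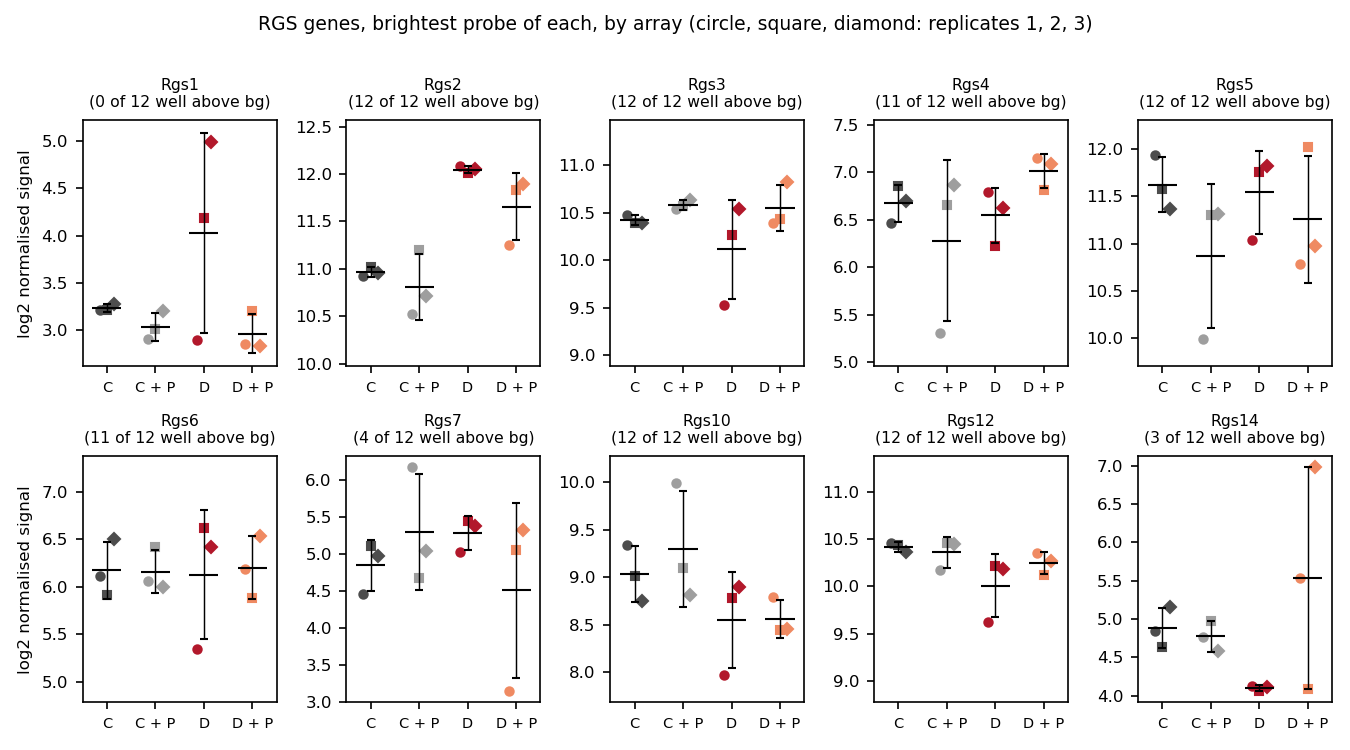
Log2 normalised signal (vertical axis) of the brightest probe of each RGS gene in the 4 groups. Each symbol is 1 array (1 mouse), with circle, square and diamond for replicates 1, 2 and 3, bars are the mean ± SD of 3, and the number of arrays on which the probe was well above background (bg) stands under the gene name; every panel spans at least 2.6 log2 units but has its own origin, and Rgs2 is the gene whose diabetic arrays lie above the non-diabetic arrays of the same slide in both comparisons.

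Rgs2 separated the diabetic from the non-diabetic hearts. Its log2 signal was 10.92, 11.02 and 10.96 in the C hearts and 12.08, 12.01 and 12.05 in the D hearts. In the C + P hearts it was 10.52, 11.20 and 10.71, and in the D + P hearts 11.25, 11.83 and 11.89. Every diabetic heart was above every non-diabetic heart, and the lowest diabetic value (D + P replicate 1) lay just above the highest non-diabetic value (C + P replicate 2). The spread was small in C (10.97 ± 0.05, SD, n = 3) and D (12.05 ± 0.03) and larger in C + P (10.81 ± 0.35) and D + P (11.66 ± 0.35).

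Rgs2 was 2.11-fold higher in D than in C, a log2 difference of 1.08 (SE 0.21, 95% interval 0.61 to 1.55, adjusted p = 0.215 in limma, rank 56 of all tested probes by p). With pargyline the difference was 1.80-fold, or 0.85 on the log2 scale (SE 0.21, 0.38 to 1.32, adjusted p = 0.318, rank 222). Averaged over pargyline the difference was 0.96 (SE 0.15, 0.63 to 1.30), and with an adjusted p of 0.0534 and rank 34 it fell just outside the threshold, while 33 probes passed. The size of the difference hardly moved when the data were processed in other ways, whereas its side of the threshold did. Over 26 alternative settings the averaged difference stayed between 0.86 and 1.08, and the adjusted p ran from 0.00828 to 0.163. It was under 0.05 in 11 of the 26, among them the authors' own normalised table (0.0354), scaling to the 75th percentile (0.0369), the fit with slide as a block (0.0441) and the fit without the 3 arrays of slide column 1 (0.0381). The fits that missed the threshold included the slide column as a block (0.14), the replicate block (0.106) and 11 of the 12 fits that left out a single array. Without D + P replicate 1, the exception, the difference was 1.06 with an adjusted p of 0.0231.

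**Figure D2:**
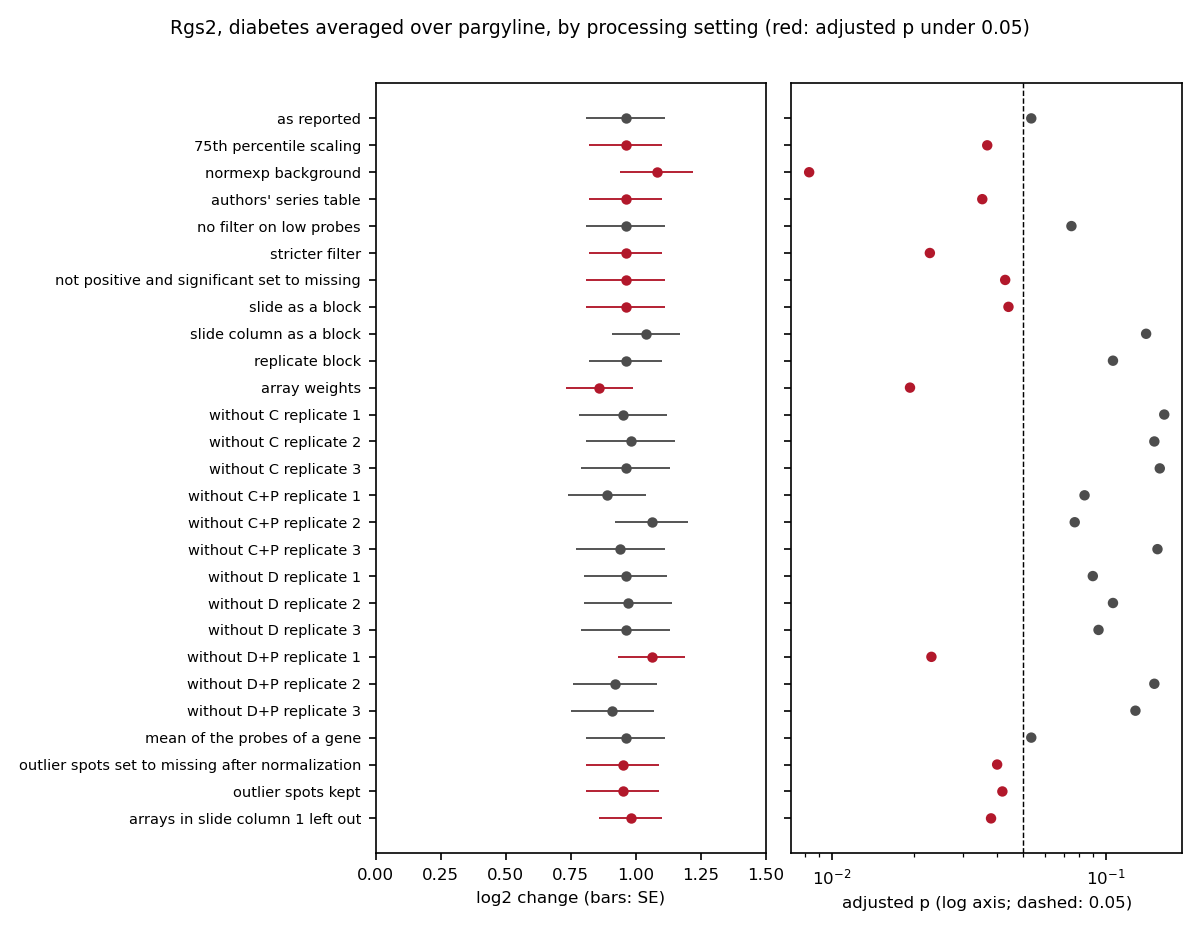
Rgs2 in diabetes averaged over pargyline under each processing setting, with the log2 change and its SE on the left and the adjusted p of limma on a log axis on the right. The changes lie between 0.86 and 1.08 throughout, while the adjusted p falls on either side of the dashed line at 0.05 (red where it is under 0.05).

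The absence of overlap in both diabetes comparisons was shared by few probes. Of all tested probes 11.9% had every D array above every C array, 7.32% had every D + P array above every C + P array, and 1.21% had both. Of the 17 RGS probes, Rgs2 alone met each of these conditions. In the other direction 4 RGS probes (1 of Rgs3, 2 of Rgs12 and that of Rgs14) had every D array below every C array, where 10.4% of all tested probes did. For Rgs14, well above background on 2 C arrays and 0 D arrays, this is an order among values at or near background and not a measured difference. A single RGS probe, of Rgs10, had every D + P array below every C + P array, against 6.57% of all.

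The Rgs2 difference was numerically smaller with pargyline. The level was highest in D, followed by D + P, C and C + P. D + P was 0.39 below D on the log2 scale (95% interval of the change -0.86 to 0.08), with all D + P arrays below all D arrays and an adjusted p of 0.443 in limma. C + P differed from C by -0.16 (-0.63 to 0.31), with overlapping arrays. Over 27 alternative settings the difference D + P against D ran from -0.57 with scaling to the 75th percentile to -0.17 without the 3 arrays of slide column 1, and leaving out 1 array gave -0.51 (without D + P replicate 3) to -0.19 (without D + P replicate 1). The interaction was -0.23 (SE 0.30, -0.90 to 0.43, adjusted p = 0.874), and its interval holds values on both sides of 0. It was -0.43 with scaling to the 75th percentile, -0.38 without C + P replicate 1, -0.04 without C + P replicate 2 and -0.03 without D + P replicate 1. Absence of overlap between D + P and D, in either direction, was seen in 17% of all tested probes and in 4 of the 17 RGS probes, and between C + P and C in 15.4% of all and in 2 of 17.

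The other Rgs2 probe, placed on an Ensembl transcript (chr1:145849832-145849891), was not well above background on any array and was not tested. Its values lay between 2.96 and 4.90, and it cannot serve as a second reading of the gene. A single probe thus carried the Rgs2 result. In whole heart muscle, a shift in the number of cells of a type and a shift in RNA per cell cannot be told apart. Of 6 atrial markers (Myl4, Myl7, Sln, Bmp10, Nr2f2, Tbx5) 0 of the 4 tested passed the threshold in any contrast, and the defining genes Sln and Bmp10 were well above background on no array. The log2 of the summed signal of the 6 was higher in diabetic hearts in both comparisons. It was 9.92 to 10.11 in C against 10.21 to 10.60 in D. In C + P it was 9.80 to 9.93, with all D + P sums above that range and up to 10.31. Tbx5 and Nr2f2, transcription factors not confined to the atria, had averaged differences of 0.52 and 0.56 (adjusted p = 0.253 and 0.256 in limma), and the atrial myosin light chain Myl4 had -0.31. Myl7, the other atrial light chain, was well above background on 1 array of each group, so its differences are not given. The part of atrial tissue in the Rgs2 values was not tested.

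Among the remaining R4 members, Rgs3, a longer protein that exists in several isoforms, was read by 5 probes, 4 of them tested. The brightest gave 10.48, 10.39 and 10.39 in C, 10.54, 10.57 and 10.64 in C + P, 9.53, 10.27 and 10.54 in D, and 10.39, 10.44 and 10.83 in D + P. D replicate 1 was the low value, and the D and C arrays overlapped. The differences were -0.31 (95% interval -0.83 to 0.21) for diabetes without pargyline and -0.03 (-0.55 to 0.49) with it. For the other tested Rgs3 probes the averaged difference ran from -0.51 to 0.09, and the one at -0.51 was well above background on only 3 arrays.

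Rgs4 and Rgs5 are neighbouring genes of chromosome 1 whose proteins act on both Gi and Gq. Rgs4 gave 6.47, 6.86 and 6.70 in C, 5.31, 6.66 and 6.87 in C + P, 6.79, 6.22 and 6.63 in D, and 7.15, 6.81 and 7.09 in D + P. The low C + P value was replicate 1, on which the probe was not well above background. Differences of -0.13 (-0.91 to 0.65) for diabetes without pargyline and 0.73 (-0.05 to 1.51, adjusted p = 0.678 in limma) with it did not pass, and with array weights the averaged difference of 0.30 became -0.01. All D + P arrays of Rgs4 lay above all D arrays, by 0.47 on average (-0.31 to 1.25).

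Rgs5, a marker of pericytes and vascular smooth muscle, gave 11.93, 11.58 and 11.36 in C, 9.99, 11.30 and 11.31 in C + P, 11.04, 11.76 and 11.82 in D, and 10.78, 12.02 and 10.97 in D + P. The spread within groups reached an SD of 0.76 in C + P and 0.67 in D + P. Its difference was -0.08 (-1.01 to 0.84) for diabetes without pargyline and 0.39 (-0.54 to 1.32) with it. C + P lay wholly below C, by -0.76 (-1.69 to 0.17, adjusted p = 1 in limma), and this was set mostly by C + P replicate 1. All 7 pericyte markers listed (Pdgfrb, Cspg4, Kcnj8, Abcc9, Notch3, Higd1b, Vtn) were well above background on every array, and none passed the threshold in any contrast. The log2 of their summed signal ranged from 13.90 to 13.95 in C, 13.58 to 13.89 in C + P, 13.62 to 13.75 in D and 13.99 to 14.05 in D + P. The part of these cells in the Rgs5 values was not tested.

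Rgs1, best known from lymphocytes, was at background throughout. Its only probe was not well above background in any of the 12 hearts, with values from 2.83 to 4.99, and it was not tested.

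Of the R7 members, Rgs6 was read at a low signal, and its groups overlapped. The brightest probe gave 6.11, 5.91 and 6.50 in C, 6.06, 6.42 and 6.00 in C + P, 5.35, 6.62 and 6.42 in D, and 6.19, 5.88 and 6.54 in D + P, and was well above background on 11 arrays. The averaged difference was 0.00 (-0.50 to 0.50). The other tested Rgs6 probe, well above background on 8 arrays, differed by -0.48 (-1.44 to 0.48). Rgs7, known mainly from neurons, was well above background on 4 arrays at its brightest probe, 2 of them in C + P and 0 in D + P, so its level in D + P is only a bound. It gave 4.46, 5.11 and 4.97 in C, 6.18, 4.67 and 5.04 in C + P, 5.03, 5.45 and 5.38 in D, and 3.14, 5.05 and 5.33 in D + P. The groups overlapped, and the other 2 Rgs7 probes were well above background on no array. Gnb5, which encodes the obligate partner Gβ5, was well above background on all 12 arrays and differed by 0.11 (-0.22 to 0.43) in the averaged contrast.

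Rgs10 is the R12 member with the largest averaged difference. Its brightest probe gave 9.34, 9.01 and 8.75 in C, 9.99, 9.10 and 8.81 in C + P, 7.97, 8.78 and 8.90 in D, and 8.79, 8.44 and 8.45 in D + P. The D + P arrays lay below the C + P arrays by a narrow margin (8.79 against 8.81), whereas D overlapped C. The averaged difference was -0.61 (95% interval -1.13 to -0.09, adjusted p = 0.377 in limma). The Rgs10 probe printed above gave a smaller value of -0.14 (-0.49 to 0.21). Between D and C the 2 probes differed in sign, at -0.48 and 0.18, and in D + P against C + P they were -0.74 and -0.46. Without the arrays of slide column 1 the averaged difference of the brightest probe was -0.35. RGS10 is abundant in platelets and leukocytes as well. For 5 platelet markers (Ppbp, Pf4, Itga2b, Gp9, Gp1ba) the log2 of the summed signal was 11.36 to 11.56 in C and 11.52 to 11.78 in C + P. It was 11.05 to 11.28 in D and 10.96 to 11.24 in D + P. Pf4, at 10.93 to 11.59 over the 12 arrays, set most of this sum, and Itga2b and Gp1ba were well above background on no array. For 10 leukocyte markers the same measure was 15.17 to 15.37 in C and 14.82 to 15.12 in C + P. It was 14.39 to 15.34 in D, reached up to 15.20 in D + P, and was set mostly by Itgam. The macrophage markers Adgre1 and Cd68 had averaged differences of -0.59 and -0.49 (adjusted p = 0.256 and 0.268 in limma). Every D + P array of both lay below every C + P array, as for the brightest Rgs10 probe. The arrays of the Rgs10 probe printed above overlapped in that comparison. Csf1r, on the same list, overlapped as well, at 11.31 to 11.71 in D + P and 11.53 to 12.02 in C + P. Group means went up from C + P to D + P for Itgam (14.57 to 14.78), Cd3e (9.45 to 9.47) and Cd79b (6.18 to 7.05). Averaged differences of the 8 leukocyte markers tested ran from -0.59 to 0.56, with a median of -0.32. Ppbp, a platelet chemokine, was lower in diabetes averaged over pargyline (adjusted p = 0.0418 in limma), and 0 leukocyte markers passed. Since Ppbp was well above background on only 2 D arrays and 1 D + P array, the size of its fall is not given. The part of these cells in the Rgs10 values was not tested.

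Rgs12 was lower in D than in C on both of its well measured probes, without passing the threshold. The brightest gave 10.46, 10.44 and 10.36 in C, 10.17, 10.46 and 10.45 in C + P, 9.63, 10.22 and 10.18 in D, and 10.35, 10.12 and 10.27 in D + P. The probe printed above gave 8.76, 9.05 and 9.06 in C, 8.94, 9.13 and 9.37 in C + P, 8.28, 8.20 and 8.60 in D, and 9.31, 8.68 and 8.79 in D + P. On both probes all D arrays were below all C arrays, by -0.41 (-0.81 to -0.01, adjusted p = 0.459 in limma) and -0.60 (-1.05 to -0.14, adjusted p = 0.375). The first of these values leaned on D replicate 1, the lowest D array on the brightest probe, without which the averaged difference of that probe was -0.17 against -0.26 with all arrays. With pargyline the diabetic and non-diabetic arrays overlapped, with differences of -0.11 (-0.52 to 0.29) and -0.22 (-0.68 to 0.24). For the second probe all D + P arrays lay above all D arrays, by 0.57 (0.11 to 1.02, adjusted p = 0.288), and the interaction of 0.38 (-0.27 to 1.02, adjusted p = 0.787) did not pass. The third tested Rgs12 probe reached that level in 0 of 12 hearts.

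Rgs14 was detected in few hearts. Its single probe gave 4.84, 4.64 and 5.16 in C, 4.76, 4.98 and 4.58 in C + P, 4.13, 4.06 and 4.11 in D, and 5.53, 4.09 and 6.98 in D + P. It was well above background on 2 C arrays and 1 D + P array and on none of D or C + P, where its level is only a bound. The D + P mean of 5.53 rested on replicate 3, the only D + P array on which the probe was well above background, so no fold against D is given (adjusted p = 0.295 in limma).

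**Figure D3:**
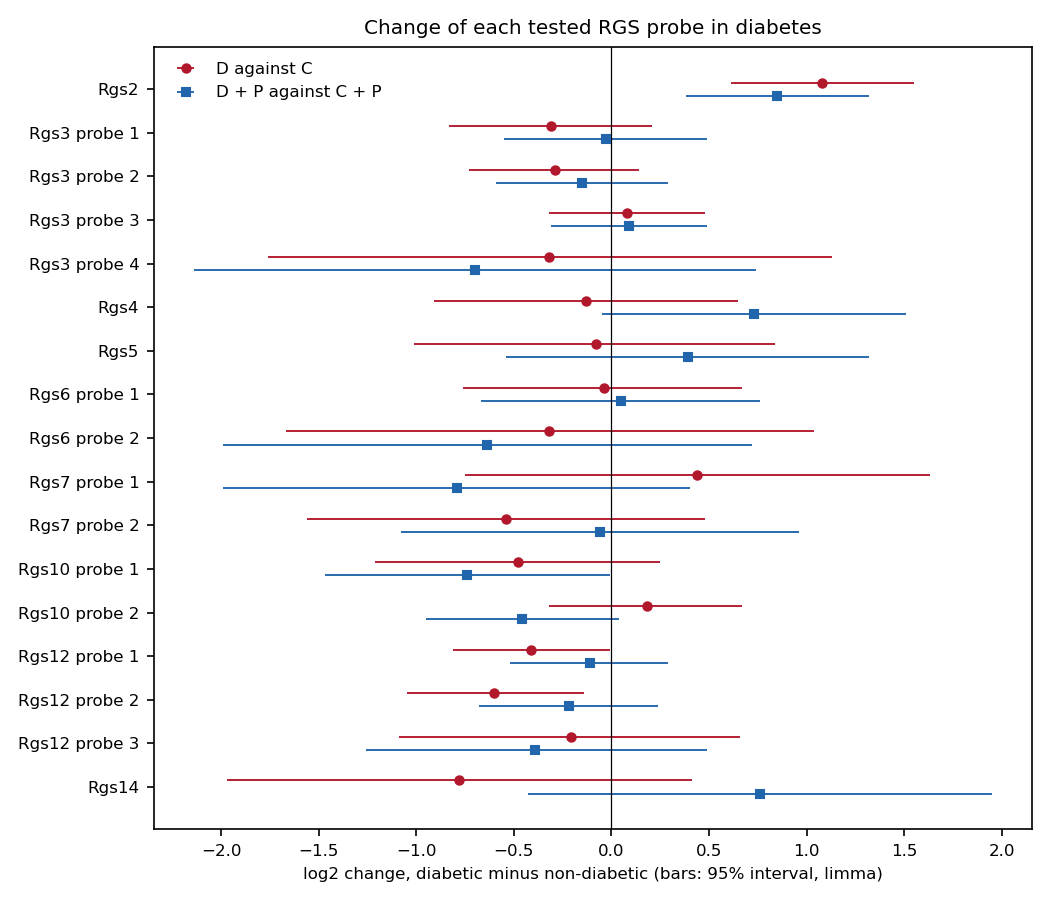
Log2 change in diabetes (horizontal axis, diabetic minus non-diabetic) of the 17 tested RGS probes, without pargyline (red circles) and with it (blue squares), with 95% intervals from limma. Probes of a gene are numbered from the brightest down; the intervals of Rgs2 exclude 0 in both comparisons, from 0.61 to 1.55 and from 0.38 to 1.32, and most others span it.

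Other RGS genes gave no further calls. Of 11 listed (Rgs8, Rgs9, Rgs11, Rgs13, Rgs16, Rgs17, Rgs18, Rgs19, Rgs20, Rgs21 and Rgs22) 7 were tested, 0 passed in any contrast, and the median averaged change was 0.15. Rgs9, an R7 protein of the retina and striatum, had the largest averaged difference, 0.86, but was well above background on 1 array, D replicate 2 (7.21). Rgs18, which platelets carry, was well above background on no array.

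The G protein subunits, receptors and effectors around RGS2 were tested in the same fit. None of the 11 tested alpha subunits, 12 beta and gamma subunits, 16 receptors, 24 effectors, 7 receptor kinases and arrestins and 12 genes of calcineurin signalling and hypertrophy passed the threshold in any contrast. Their median averaged changes were 0.02, -0.03, 0.11, -0.02, -0.11 and 0.10, beside -0.01 over all tested probes. Gnaq and Gna11, the alpha subunits on which RGS2 acts, had C means of 8.83 and 9.90 and D means of 8.25 and 9.72. D replicate 1 set the lower D means, since Gnaq was 7.11, 8.84 and 8.79 and Gna11 9.05, 10.16 and 9.95 in the D hearts. With pargyline the means of Gnaq were 8.96 in C + P and 8.92 in D + P, those of Gna11 were 9.63 and 9.89, and the arrays of both genes overlapped in both comparisons.

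By the largest averaged difference in each list, Gnao1, the alpha subunit Gαo, was -0.58 (SE 0.12, adjusted p = 0.123 in limma), with -0.91 for diabetes with pargyline, where all D + P arrays were below all C + P arrays, and -0.26 without it, where the arrays overlapped. Gng4, a gamma subunit, was 0.54 (SE 0.19, adjusted p = 0.341). Adora2a, the Gs-coupled adenosine receptor 2a, was 0.68 (SE 0.15, adjusted p = 0.144), higher in every diabetic heart than in the non-diabetic hearts of its slide. Prkcb, protein kinase C beta, was -0.53 (SE 0.14, adjusted p = 0.226). Grk5, a receptor kinase of the heart, was 0.34 (SE 0.15, adjusted p = 0.438), with 0.70 for diabetes without pargyline and -0.01 with it. Myh7, the beta myosin heavy chain that is re-expressed in the stressed rodent ventricle, was 1.78 (SE 0.37, adjusted p = 0.134), with C arrays from 11.44 to 11.87, C + P from 11.21 to 11.54, D from 12.06 to 13.83 and D + P from 12.42 to 14.35.

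**Figure D4:**
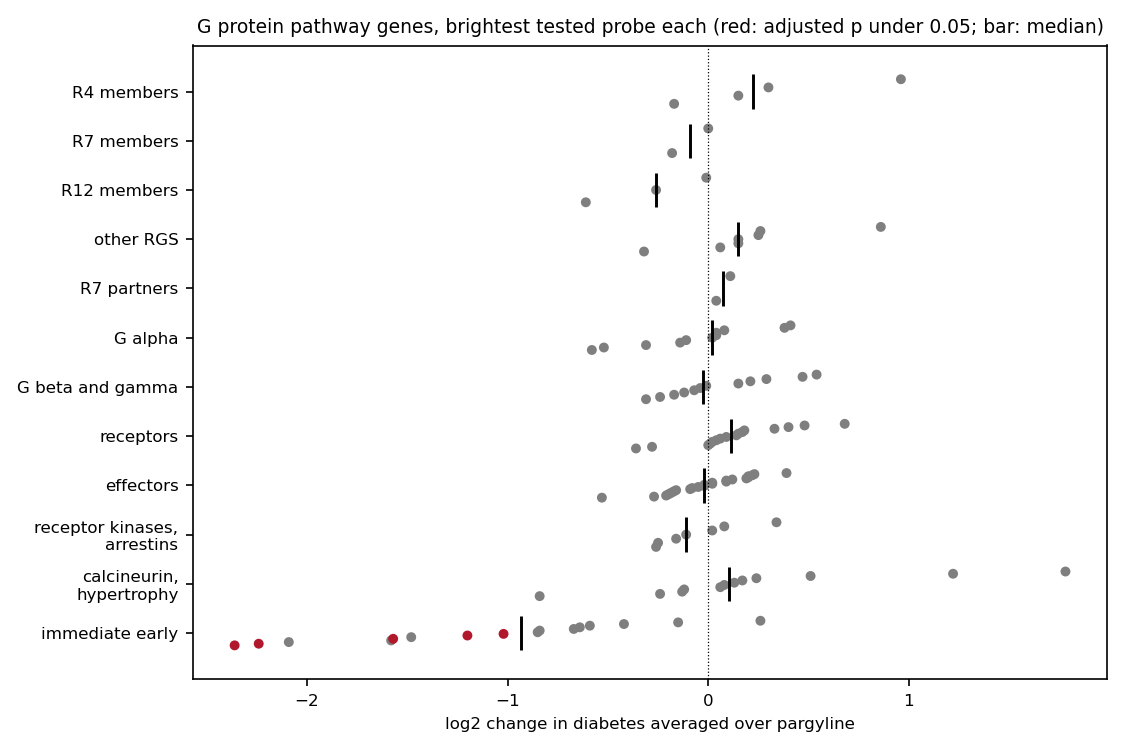
Log2 change in diabetes averaged over pargyline (horizontal axis) for the genes of each list, 1 point per gene from its brightest probe, with a bar at the median and red points where the adjusted p was under 0.05. The red points are 5 immediate early genes, all lower in the averaged contrast although 0 passed in D against C alone, and the RGS members and the other lists plotted hold none; Rgs2 is the rightmost point of the R4 members at 0.96.

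Rgs2 transcription is known to be induced rapidly by hormones and serum, as are the immediate early genes, and these were the pathway genes that passed. Of 16 tested, 6 rose in C + P against C, 6 fell in D + P against C + P and 5 fell in the averaged contrast. These comparisons share the C + P hearts, in which the genes were high. In limma 0 passed in D against C, with 3 lower and 0 higher at an unadjusted p under 0.05, and 0 in D + P against D, with 2 higher at that level. Probes of Egr1 and Nr4a1 were the 2 on the whole array that passed in the interaction. Egr1, a zinc finger transcription factor, gave 7.91, 7.91 and 8.43 in C, 12.37, 11.60 and 11.74 in C + P, 7.76, 7.97 and 7.22 in D, and 8.05, 7.86 and 7.63 in D + P. It rose by 3.82 (SE 0.27, adjusted p = 0.000797 in limma) in C + P against C, and Nr4a1, an orphan nuclear receptor, rose by 3.82 (SE 0.30, adjusted p = 0.000797). Ier2 rose by 1.99 (SE 0.15, adjusted p = 0.000797). Fos, well above background on 4 arrays, was at least 16-fold higher in C + P than in D + P by its bound (adjusted p = 0.0193). In C + P against C the median change of the immediate early genes was 1.76, and that of Rgs2 was -0.16 (-0.63 to 0.31), with overlapping arrays. In D against C the median of the immediate early genes was -0.22, and Rgs2 was at 1.08. Any link between Rgs2 and these genes was not tested.

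Among the genes whose log2 signal followed Rgs2 most closely over the 12 arrays were Rnf7 (Pearson r 0.956), a RING subunit of ubiquitin ligases, Scd4 (0.948), a stearoyl-CoA desaturase, Murc (0.938), a protein of muscle caveolae, Art4 (0.937), an ADP-ribosyltransferase, and Ntn1 (0.936), the guidance factor netrin 1. They were taken from the highest of 21513 probes, of which 99% had an r up to 0.806, and the 12 points share the difference between diabetic and non-diabetic hearts. After the group means were subtracted r ranged from 0.612 (Ntn1) to 0.897 (Murc), on the same arrays by which these genes were chosen. Scd4 differed by 2.33 for diabetes without pargyline and 2.24 with it. The lowest values were those of Pirb (-0.956), an inhibitory receptor of leukocytes, Ccl24 (-0.955), a chemokine, and Stx4a (-0.94), syntaxin 4. Pirb was 9.43 and 9.50 in C and C + P and 8.60 and 8.85 in D and D + P.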

How the data were processed

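RNA of 12 mouse hearts was hybridised to 1-colour Agilent arrays. The deposited scanner files hold spot intensity on a linear scale, background-subtracted and detrended by Feature Extraction 12.0.0.7 per the file headers, and the deposited series table holds intensity that the authors quantile normalised. Control spots were dropped, outlier-flagged spots set to missing, and log2 signals quantile normalised between the 12 arrays. Probes positive and significant on at least 50% of arrays of every group were fitted with limma 3.58.1 in R 4.3.3 (1 mean per group, eBayes, two-sided tests, Benjamini-Hochberg over all 30859 tested probes, threshold 0.05), with the package data.table, version 1.17.8. The fit was tested on simulated data. With 3 arrays a group, precision is limited by that number. Alternatives were other normalisations, background corrections, filters, blocks, array weights, the methods' t-test per probe and leaving out arrays. The members and gene lists were chosen with earlier results of these data known. The text names every member, giving the brightest probe of a gene in full. In each pathway list it names up to 4 genes past the threshold, otherwise the gene with the largest averaged change. It also names the 6 genes with the highest and the 3 with the lowest correlation with Rgs2, of which 1 is not reported here. Replicate numbers in the labels were taken not to pair samples, since the sample descriptions carry other animal numbers. Figures were drawn with matplotlib 3.10.9.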

Additional observations from a re-analysis of the deposited data

How the results depend on the processing

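The number of RGS probes past the threshold stayed at 0 under every alternative run for diabetes with pargyline, for both pargyline contrasts and for the interaction. For D against C it was 1 with array weights. In diabetes averaged over pargyline it was 1, that of Rgs2, with scaling to the 75th percentile, normexp background, the authors' series table, the stricter filter, values not positive and significant set to missing, slide as a block, array weights, outlier spots set to missing after normalisation, outlier spots kept, and the arrays of slide column 1 left out (these last 3 were chosen after seeing the data). Leaving out 1 array at a time gave 0 to 1 probes in the averaged contrast and 0 in the others. The cause of these moves was not tested. The count of all probes past the threshold in the averaged contrast was 33, from 3 with the slide column as a block to 348 with array weights, and the counts ran from 0 to 279 (2 as reported) in D against C, 1 to 39 (14) in D + P against C + P, 1 to 206 (10) in C + P against C, 0 to 9 (0) in D + P against D and 0 to 5 (2) in the interaction. The methods' t-test gave 0 RGS probes in the 4 pairwise contrasts, with Benjamini-Hochberg or Bonferroni adjustment.

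The replicate numbers of the labels paired no samples, since same-numbered arrays correlated between -0.204 and 0.2 in their deviations from the group means. With the replicate block Rgs2 was 0.96 with an adjusted p of 0.106 and 0 RGS probes passed in any contrast.

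The averaged change of Rgs2 ranged from 0.89 to 1.06 over the 12 fits without 1 array. Small changes turned sign. Rgs2 in C + P against C was 0.06 with array weights and -0.35 to -0.01 without 1 array. In the averaged contrast, Rgs3 was 0.01 without the arrays of slide column 1. Rgs4 was -0.01 with array weights and -0.03 without those arrays. Rgs5 was -0.07 with normexp background and -0.07 to 0.28 without 1 array. Rgs6 was -0.24 as the mean of its probes, 0.00 with outlier spots kept or set to missing after normalisation, and -0.12 to 0.20 without 1 array. Rgs7 was 0.17 with values not positive and significant set to missing, 0.14 with array weights, 0.45 without the arrays of slide column 1 and -0.38 to 0.17 without 1 array. Rgs14 was 0.00 with scaling to the 75th percentile and in the authors' table, 0.18 with the slide column as a block, and -0.37 to 0.35 without 1 array. None of these had an adjusted p under 0.05 in limma. Signal over background limits Rgs1, Rgs7 and Rgs14, for which most arrays gave only a bound.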
